A study of Mus musculus with 38 samples.

Results

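The testes of 7-day-old males of 2 inbred mouse strains, MSM and B6, were compared over the whole genome. The comparison used 6 of the 38 arrays of the series, 3 from MSM males and 3 from B6 males, chosen by their strain and age labels. MSM is an inbred strain derived from Japanese wild mice, *Mus musculus molossinus*, and B6 is the laboratory strain C57BL/6J. Both groups were untreated males at 7 days postpartum (dpp), and each array held total RNA from the whole testis of 1 male, so that every cell type of the organ contributed to each value. The series was made to study a strain in which the X chromosome of MSM was placed on the B6 background (B6-ChrXMSM), and MSM served there as the source of that chromosome. MSM and B6 males of 5 dpp, with 3 arrays a group, share no animal with the 7 dpp groups and were used to see whether differences were present in other males. The 3 B6-ChrXMSM arrays of 7 dpp were used for the X chromosome and for germ cell genes, with the shares over autosomes beside them. Values are log2 signals of single probe sets, the groups of short probes that read a transcript on the array, and a difference of 1 on this scale is a change of 2-fold.

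In the first week after birth the seminiferous cords of the mouse testis hold Sertoli cells, the somatic cells that nurse the germline, and spermatogonia, which are its mitotic germ cells. Undifferentiated spermatogonia include the stem cells. Under retinoic acid they give rise to differentiating spermatogonia, which turn on *Kit* and later *Stra8* and go on to meiosis. Leydig cells, peritubular myoid cells, macrophages and vessels surround the cords. Probes of the array were designed on the sequence of laboratory mice, and a base that differs in MSM under a probe can weaken its signal without any change in the amount of transcript. The study scored polymorphism in MSM for all probe sets of the array, and its list used here is for chromosome 1 and the X chromosome. Probe sets on this list were left out. The scores for most of the other autosomal probe sets were not used here, and the part of polymorphism in their values was not tested.

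Of 45101 probe sets on the array, 34728 had 1 gene of known chromosome, autosomal or X-linked, and 981 of these were left out as polymorphic. The remaining 33747 probe sets represented 17704 genes. Of these, 17298 exceeded a signal minimum of log2 of 10 in the mean of either strain and are called kept below. Array medians lay between 2.68 and 2.69. Over the probe sets the arrays of 1 strain correlated with r of 0.993 to 0.994 in MSM and 0.995 to 0.996 in B6, and arrays of different strains with r of 0.926 to 0.929. The median SD among the 3 males was 0.0859 in MSM and 0.074 in B6. The germ cell genes *Ddx4* and *Dazl* and the Sertoli cell genes *Sox9* and *Amh* were above the signal minimum in both groups, as the label of testis requires. No gene of the erythroid (4 on the array) or skeletal muscle list (12 on the array) reached the minimum.

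MSM and B6 testes differed at a large part of the transcripts measured. Transcripts were called different where limma's adjusted p, corrected by the Benjamini-Hochberg method over all kept probe sets, was below 0.05 and the fold change was 1.5 or more. By this rule 1626 of 17298 transcripts (9.4%) were upregulated and 1365 (7.89%) were downregulated in MSM. Without the limit on fold change, 10006 transcripts (57.8%) passed the threshold. All 3 MSM males lay above all 3 B6 males for 7464 transcripts (43.1%) and below them for 3941 (22.8%). The median log2 fold change of the kept transcripts was 0.105, and it fell to 0.049 when the 6 arrays were quantile-normalized again. Counting each gene once, by the kept probe set with the highest mean signal, 965 of 10254 genes (9.41%) were higher, 547 (5.33%) were lower and the median was 0.114. These last shares are the background against which each gene list below is read. A gene could be kept through a single strain, whose mean then lay above that of the other. Values without the signal minimum are therefore also given for some of the lists. Without it, 1326 of 17704 genes were higher, 672 were lower and the median was 0.11.

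**Figure D1:**
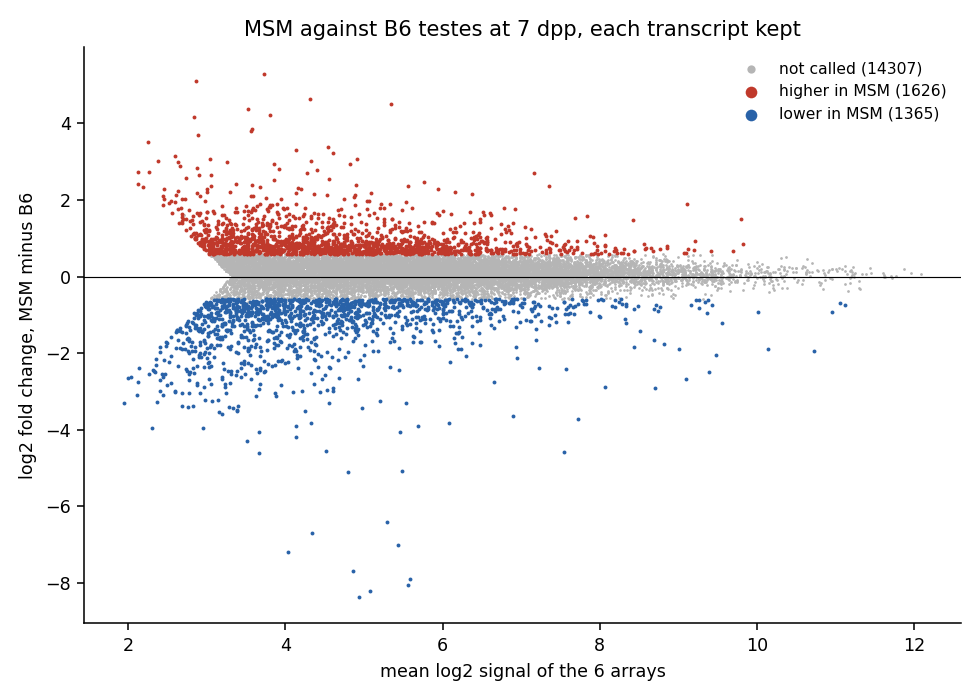
Log2 fold change of MSM against B6 at 7 dpp (vertical axis) against the mean log2 signal of the 6 arrays (horizontal axis), with 1 point for each of the 17298 kept transcripts, red for the 1626 higher and blue for the 1365 lower in MSM. The lowest points, below -6, are probe sets of a few genes such as *Rpn1*, *Ppp2r1a* and *Gsn*.

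Most of the differences were also measured in the younger males. Of the 1626 transcripts higher in MSM at 7 dpp, 1027 (63.2%) were called higher at 5 dpp, where 16.4% of all transcripts were, and 10 were called lower. Of the 1365 lower at 7 dpp, 1125 (82.4%) were called lower at 5 dpp, where 11.9% of all transcripts were, and 5 were called higher. The median log2 fold change of the higher transcripts was 0.817 at 7 dpp and 0.727 at 5 dpp, and that of the lower ones was -1.01 and -1.16. A base that differs in MSM under a probe is the same at both ages, and its part in these shares was not tested.

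Many genes of undifferentiated spermatogonia were higher in MSM. Without the signal minimum, 9 of the 17 such genes on the array rose and none fell, with a median log2 fold change of 0.70. With it 13 were kept and 7 of these rose, where 9.41% of all genes did. Of these 7, *Cdh1*, *Ret* and *Lhx1* were kept through MSM alone, and the B6 mean of *Neurog3* lay at the minimum itself. Averaged over all 17 genes, the log2 level lay between 4.7 and 4.75 in the MSM males and between 3.99 and 4.14 in the B6 males. In whole testis RNA, more cells of a type and more RNA per cell cannot be told apart. *Neurog3*, a transcription factor of spermatogonia that leave the stem cell state, measured 4.86, 4.90 and 4.91 in MSM and 3.09, 3.27 and 3.60 in B6. The groups did not overlap, and the log2 fold change was 1.57 ± 0.12 (SE, n = 3 a group; limma adjusted p = 1.54e-05). *Id4*, an inhibitor of differentiation that marks spermatogonial stem cells, measured 7.16, 7.20 and 7.40 in MSM and 6.04, 5.87 and 6.03 in B6. Its 3 probe sets rose by 1.28, 1.42 and 1.63 on the log2 scale, and every MSM male stood above every B6 male on the first of them (limma adjusted p = 7.65e-06).

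Both receptors of the Sertoli cell factor GDNF were among these genes. *Ret*, the signalling receptor, measured 4.60, 4.50 and 4.54 in MSM against 3.12, 3.07 and 3.12 in B6, a log2 fold change of 1.44 (limma adjusted p = 5.38e-07). Its other probe set gave 0.57 (limma adjusted p = 0.00372) and missed the fold limit. *Gfra1*, the co-receptor that binds GDNF, measured 4.91, 4.90 and 5.04 in MSM and 4.36, 4.23 and 4.18 in B6, with a log2 fold change of 0.70 (limma adjusted p = 8.76e-05). For both genes the strains did not overlap. *Lhx1*, a transcription factor induced by GDNF, rose by 1.02 (4.08, 4.05 and 4.12 against 2.87, 3.28 and 3.05; limma adjusted p = 6.63e-05). *Gdnf* itself, made by Sertoli cells, had a log2 fold change of -0.36 (limma adjusted p = 0.00835), under the fold limit.

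*Lin28a*, an RNA-binding protein of early germ cells, measured 4.67, 4.93 and 5.03 in MSM and 4.13, 4.14 and 4.12 in B6, and rose by 0.74 (limma adjusted p = 0.000237). In a fit over all groups of the series, which share 1 estimate of the spread, the adjusted p of *Lin28a* was 0.0534 and the call was lost. *Cdh1*, the epithelial adhesion protein E-cadherin, measured 4.70, 3.84 and 4.25 in MSM against 2.73, 2.26 and 2.44 in B6, with a log2 fold change of 1.79 (limma adjusted p = 0.000153). *Cdh1* is also made by duct epithelium, whose genes are given below with the epididymis list. Other members of the list showed smaller values. *Foxo1*, *Etv5* and *Bcl6b*, transcription factors of stem cell upkeep, had log2 fold changes of 0.39, 0.32 and 0.40, and *Zbtb16*, known as PLZF, had 0.04 at its probe set of highest mean and 0.81 (called) and -0.04 at the other two. *Sall4*, a zinc finger factor of the germline, had 0.11 and -0.98 at its 2 probe sets, the second of which was called lower. With the signal minimum raised to log2 of 50, 5 genes of the list were kept and 1 of them rose.

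Genes of the piRNA pathway and of germ cells in general, which silence transposons and mark the germline, numbered 22 on the array, and 21 passed the minimum. Of these 4 rose and none fell, with a median log2 fold change of 0.35, beside 0.114 for all genes. Over all 22 the median was 0.34. Their mean level ran from 6.08 to 6.22 in MSM and from 5.71 to 5.81 in B6. *Piwil4*, the PIWI protein that acts in the nucleus of fetal and newborn germ cells, showed the largest value and was kept through MSM alone. It measured 4.77, 4.78 and 4.37 in MSM and 2.62, 2.85 and 2.14 in B6, a log2 fold change of 2.10 ± 0.18 (SE, n = 3 a group; limma adjusted p = 3.23e-05). *Tdrd5*, a tudor protein of the germ granule, rose by 1.01 (5.38, 5.47 and 5.51 against 4.40, 4.46 and 4.46; limma adjusted p = 4.1e-06). Neither gene had overlapping groups. *Mov10l1*, the helicase that starts piRNA production, and *Dnd1*, an RNA-binding protein of germ cell survival, rose by 0.66 and 0.60. After quantile normalization was repeated these came to 0.57 and 0.53, and the list then held 2 rising genes in place of 4. The adjusted p of *Mov10l1* was 0.055 in the fit over all groups, and its value was 0.57 without the first B6 male. *Dnd1* came to 0.52 without the second B6 male and to 0.54 without the second MSM male. The markers of all germ cells did not pass the limits. *Ddx4* (the germ cell helicase VASA) measured 8.08, 7.97 and 7.78 in MSM and 7.81, 7.77 and 7.74 in B6, with a log2 fold change of 0.17 (limma adjusted p = 0.101), and *Dazl*, an RNA-binding protein of the germline, had -0.11.

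Genes of differentiating spermatogonia lay on both sides of no change. Of 15 on the array 13 were kept, 2 rose, 1 fell and the median log2 fold change was 0.03, and their mean level was 5.31 to 5.42 in MSM and 5.24 to 5.37 in B6. *Kit*, the receptor that defines these cells, measured 6.46, 6.52 and 6.44 in MSM and 6.47, 6.50 and 6.34 in B6 (log2 fold change 0.03, limma adjusted p = 0.667). The males of both strains overlapped, as they did for *Sohlh1*, a transcription factor upstream of *Kit*, with 0.11. *Uchl1*, a deubiquitinating enzyme abundant in spermatogonia, rose by 0.66 (7.77, 7.88 and 8.01 against 7.15, 7.18 and 7.35; limma adjusted p = 0.000262). *Meioc*, which maintains meiotic prophase, rose by 0.63 (4.43, 4.69 and 4.13 against 3.52, 4.03 and 3.81; limma adjusted p = 0.0101), but this came to 0.49 without the first B6 male and to 0.49 without the second MSM male, and its adjusted p was 0.199 in the fit over all groups. *Stra6*, the transporter that takes up retinol, fell by 0.64 (2.91, 2.71 and 2.80 against 3.40, 3.51 and 3.43; limma adjusted p = 0.000126) and was kept through B6 alone. *Stra8*, the gatekeeper of meiosis induced by retinoic acid, lay lower in all 3 MSM males (6.76, 7.04 and 6.77 against 7.18, 7.49 and 7.31), and its log2 fold change of -0.47 (limma adjusted p = 0.00484) did not reach the fold limit.

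Among genes of meiotic prophase, 16 of 26 were kept, 1 rose and 2 fell, with a median of 0.17 and mean levels of 4.46 to 4.58 in MSM and 4.32 to 4.5 in B6. *Sycp3*, a protein of the synaptonemal complex, measured 6.19, 6.17 and 6.01 in MSM and 6.83, 7.06 and 6.84 in B6 and fell by 0.79 (limma adjusted p = 0.000106). *Syce3*, of the central part of that complex, measured 3.84, 4.06 and 3.78 against 4.43, 4.84 and 4.86 and fell by 0.82 (limma adjusted p = 0.000777). The males of the strains did not overlap for either gene. *Sycp1* and *Sycp2*, of the same complex, had log2 fold changes of 0.30 and 0.27 and were not called. In the fit over all groups the adjusted p of *Sycp3* was 0.0519 and of *Tex11*, the rising gene described below, 0.114. No gene of the list rose in that fit, 3 rose without the second B6 male, the third B6 male or the third MSM male, and 2 without the first or the second MSM male.

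Several of these germ cell genes stood farther from B6 at 5 dpp than at 7 dpp. At 5 dpp 17% of genes were higher and 8.47% lower. Among kept genes, 8 of 13 rose for undifferentiated and 3 of 11 for differentiating spermatogonia. For the piRNA pathway 11 of 20 rose, and for meiotic prophase 7 of 16 rose and 1 fell. A gene could be kept through MSM alone, which favours rises in these counts. Mean levels at 5 dpp over all list genes on the array do not depend on the minimum. For undifferentiated spermatogonia they were 4.74 to 4.86 in MSM and 3.74 to 3.86 in B6. For differentiating spermatogonia they were 4.61 to 4.88 and 4.29 to 4.36. The piRNA pathway had 5.32 to 5.67 and 4.72 to 4.9, and meiotic prophase 3.76 to 4.02 and 3.46 to 3.59. The difference between the strain differences of the 2 ages was tested in 1 fit over the 12 arrays, where 5.7% of transcripts had a more positive and 6.37% a more negative strain difference at 7 dpp, or 4.06% and 6.57% of genes counted once. None of the genes of undifferentiated spermatogonia was more positive and 3 of 13 were more negative. The counts more negative were 5 of 13 for differentiating spermatogonia, 4 of 16 for meiotic prophase, 5 of 21 for the piRNA pathway and 4 of 11 for X-linked genes of spermatogonia, with none more positive. *Lin28a* was 2.56 higher in MSM at 5 dpp and 0.74 at 7 dpp, a change of the log2 difference of -1.82 (limma adjusted p = 0.000153). *Uchl1* went from 1.83 to 0.66 (-1.17, limma adjusted p = 9.7e-05) and *Kit* from 0.98 to 0.03 (-0.94, limma adjusted p = 8.06e-05). *Neurog3* (1.96 and 1.57), *Piwil4* (1.81 and 2.10) and *Gfra1* (0.68 and 0.70) were called higher at both ages. For *Sycp3* the difference was -0.11 at 5 dpp and -0.79 at 7 dpp (-0.68, limma adjusted p = 0.0161).

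**Figure D2:**
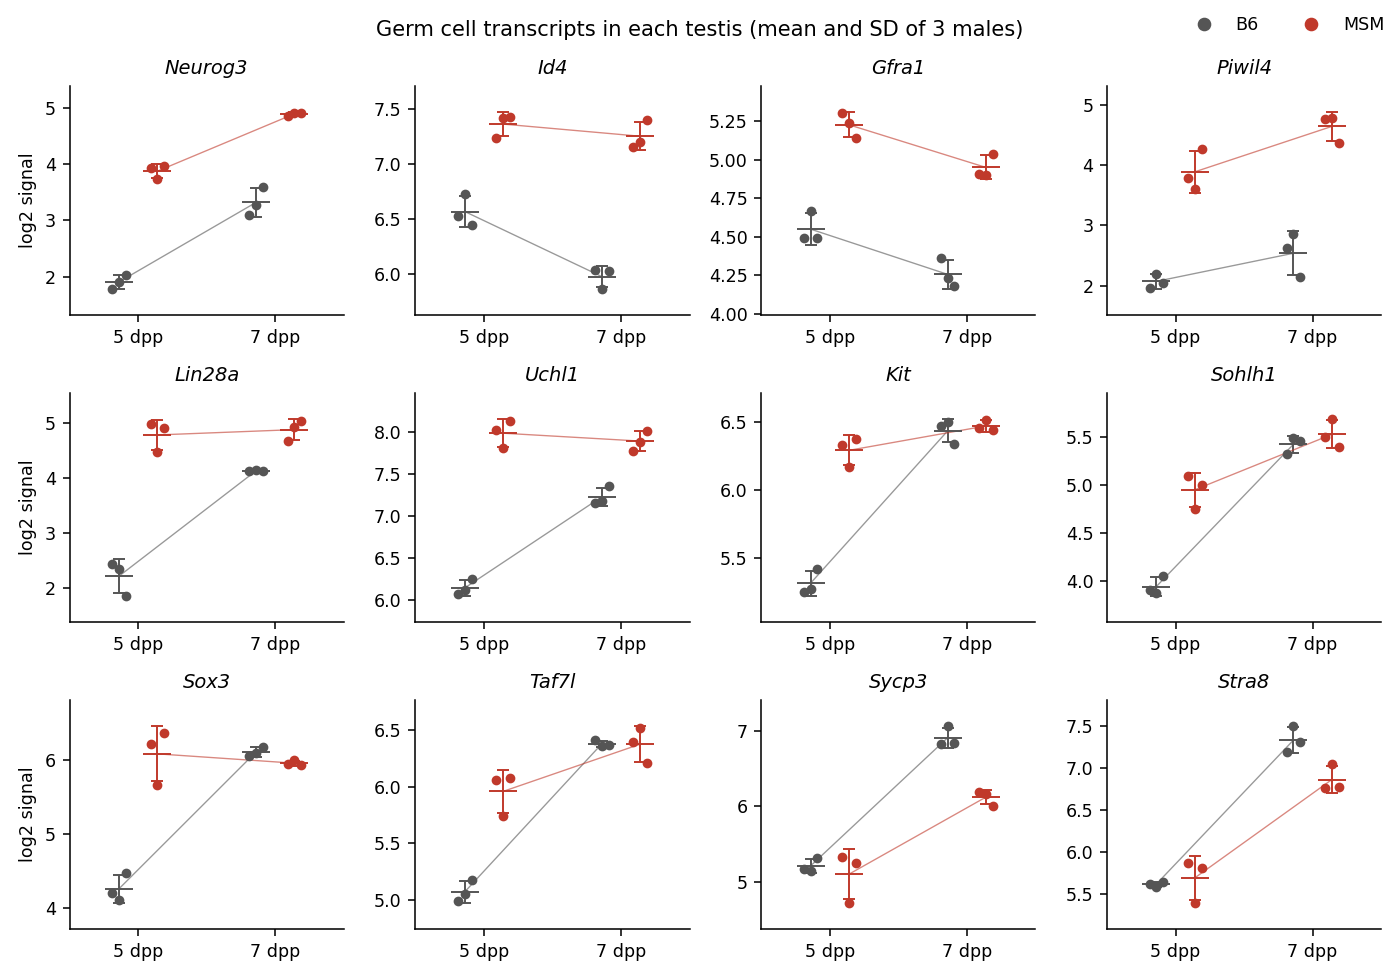
Log2 signals (vertical axes) of 12 germ cell genes in B6 (grey) and MSM (red) testes at 5 and 7 dpp, with 1 point a male bars for the mean and SD of 3 males and lines that join the means. The strains lie apart for *Kit* at 5 dpp and overlap at 7 dpp, lie apart for *Piwil4* and *Neurog3* at both ages, and for *Sycp3* lie apart at 7 dpp, where the log2 fold change was -0.79.

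Sertoli cell genes moved in both directions. Of 26 on the array 24 were kept, 4 rose and 2 fell, the median was -0.14, and the mean level was 6.81 to 6.93 in MSM and 6.81 to 6.86 in B6. *Amh*, the hormone that removes the female duct in the embryo and marks immature Sertoli cells, measured 5.01, 5.15 and 5.34 in MSM and 4.28, 3.82 and 3.75 in B6, and rose by 1.22 (limma adjusted p = 0.000189). *Sox9*, the transcription factor that makes Sertoli cells, measured 5.77, 6.01 and 6.10 in MSM and 6.71, 6.42 and 6.69 in B6, and fell by 0.64 at this probe set and by 0.59 at its other one (limma adjusted p = 0.00122 and 0.000539). Both genes had groups apart from each other. *Sox9* came to -0.55 without the first MSM male, which ended its call, and 1 gene of the list was called lower without the third B6 male or without the third MSM male. *Sox8*, a related factor, rose by 0.63 (7.14, 7.14 and 7.20 against 6.52, 6.57 and 6.51; limma adjusted p = 3.84e-05) and came to 0.57 when quantile normalization was repeated. *Clu*, a secreted chaperone that is abundant in Sertoli cells, fell at all 4 of its probe sets by 0.68 to 0.93. The one of highest signal measured 10.75, 10.76 and 10.74 against 11.57, 11.40 and 11.48 (limma adjusted p = 2.95e-05).

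*Kitl*, the ligand of KIT on Sertoli cells, was singled out after its values were seen. One of its 4 probe sets measured 6.88, 6.85 and 6.78 in MSM and 8.05, 7.98 and 8.07 in B6 and fell by 1.19 (limma adjusted p = 1.64e-06). Another 2 fell by 0.81 and 1.31, and the one of highest signal had a log2 fold change of -0.58 and was not called. *Dmrt1* and *Gata4*, transcription factors of Sertoli cells, had -0.51 and -0.19, and *Wt1* had -0.25, none called.

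The keratins *Krt8* and *Krt18* gave the largest values of the Sertoli list, and both are also keratins of duct epithelium. *Krt8* measured 5.47, 4.07 and 5.17 in MSM and 3.01, 3.57 and 2.79 in B6, with log2 fold changes of 1.78, 1.84 and 1.68 at its 3 probe sets (limma adjusted p = 0.0024 for the first). *Krt18* measured 4.11, 2.78 and 3.99 against 2.04, 2.32 and 2.50, a log2 fold change of 1.34 (limma adjusted p = 0.00647; 0.0508 in the fit over all groups, where the call was lost). Both keratins were kept through MSM alone, and the second MSM male was the lowest of its group for both. Of the 11 genes of the epididymis list on the array 9 were under the signal minimum, and their mean level over all 11 was 2.05 to 2.43 in MSM and 1.75 to 1.85 in B6. Without the minimum 3 of the 11 were called higher, with a median of 0.27. The genes above it were *Spink8*, kept through MSM alone, and *Epcam*. *Spink8*, a protease inhibitor of the epididymis, measured 4.53, 2.96 and 5.69 in MSM and 1.45, 1.80 and 1.96 in B6, a log2 fold change of 2.66 (limma adjusted p = 0.00399; 0.0582 in the fit over all groups) that was 3.37 without the second MSM male and 2.01 without the third. *Epcam*, an epithelial adhesion protein that germ cells also make, measured 7.90, 7.68 and 7.97 against 6.66, 6.83 and 6.89 and rose by 1.06, with -0.25 at its other probe set. The part of attached duct tissue in the values of *Cdh1*, *Krt8* and *Krt18* was not tested.

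Genes of adipose tissue differed widely between single males. Over all 12 on the array the median log2 fold change was 0.32, and 4 were called higher without the signal minimum. With it 6 were kept and 3 called, *Car3*, *Fabp4* and *Cd36*, all of them kept through MSM alone. *Car3*, a carbonic anhydrase of fat and muscle, measured 5.43, 7.71 and 4.02 in MSM and 0.62, 2.18 and 1.22 in B6, a log2 fold change of 4.38 ± 0.81 (SE, n = 3 a group; limma adjusted p = 0.00209). It was 3.38 without the second MSM male, and its adjusted p was 0.0953 in the fit over all groups. *Fabp4*, the fatty acid carrier of fat cells, measured 5.00, 7.27 and 4.10 against 1.69, 1.89 and 1.39, with 3.80 in all males and 2.90 without the second MSM male (limma adjusted p = 0.00153 in all males). The second MSM male was the highest for both, and without the third the values were 5.23 and 4.48. *Cd36*, a fatty acid receptor that endothelium and macrophages also make, rose by 1.64 and 1.37 at its 2 probe sets (4.58, 5.21 and 4.84 against 3.19, 3.38 and 3.12 at the first). *Adipoq*, the hormone that defines fat cells, was under the minimum, with 2.48, 5.07 and 1.06 in MSM, where the second male again stood highest. The mean level of the list was 3.36 to 4.37 in MSM and 2.67 to 2.86 in B6 at 7 dpp, and 3.41 to 4.97 and 3.2 to 5.14 at 5 dpp. The part of fat attached to the testis in these values was not tested.

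Of the other somatic cells, the endothelial list had a median above and the macrophage list a median below that of all genes, with few calls in either. Of 14 endothelial genes 8 were kept, 2 rose and none fell, with a median of 0.43 (0.35 and 4 rising over all 14 without the minimum) and mean levels of 3.77 to 3.82 in MSM against 3.3 to 3.42 in B6. *Emcn*, a surface sialomucin of capillaries and veins that was kept through MSM alone, measured 4.23, 4.21 and 4.67 in MSM and 3.12, 2.87 and 2.81 in B6, and rose by 1.44 (limma adjusted p = 5.05e-05). *Esam*, a junction protein, rose by 0.64, or 0.58 without the third MSM male. *Cdh5*, the cadherin of endothelial junctions, had 0.52 and *Kdr*, the receptor of VEGF, had 0.06. Without the first MSM male 4 genes of the list were called. Of 16 macrophage genes 10 were kept, the median was -0.31 (-0.17 over all 16) and 1 fell, *Lyz2*, the lysozyme of myeloid cells, by 0.70, a call that was lost without the third B6 male or the first MSM male.

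Genes of Leydig cells and steroid synthesis had a median of 0.10 over 13 genes, which was -0.03 without the second B6 male and -0.13 without the first MSM male. Of these genes 2 fell and none rose, and the mean level of the list was 6.64 to 6.95 in MSM and 6.78 to 6.9 in B6. *Cyp11a1*, the enzyme that starts steroid synthesis from cholesterol, fell by 0.67 (limma adjusted p = 0.00235), and *Hsd17b3*, which makes testosterone, fell by 0.59 (limma adjusted p = 0.000636). *Star*, which carries cholesterol into mitochondria, had 0.14. Both calls depended on single males, as *Cyp11a1* came to -0.57 without the third B6 male and *Hsd17b3* to -0.50 without the first MSM male, and the list held no call without the third B6 male, 1 without the second B6 male or the second MSM male, and 4 without the first B6 male. Among smooth muscle genes of the peritubular wall 9 of 12 were kept with a median of 0.27. *Myl9* and *Tagln*, contractile proteins, rose by 0.73 and 0.69 and *Actg2*, an enteric actin, fell by 0.66. The call of *Actg2* was lost without the first B6 male, the second B6 male or the second MSM male and in the fit over all groups (limma adjusted p = 0.0885), and *Tagln* was 0.57 without the third MSM male.

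**Figure D3:**
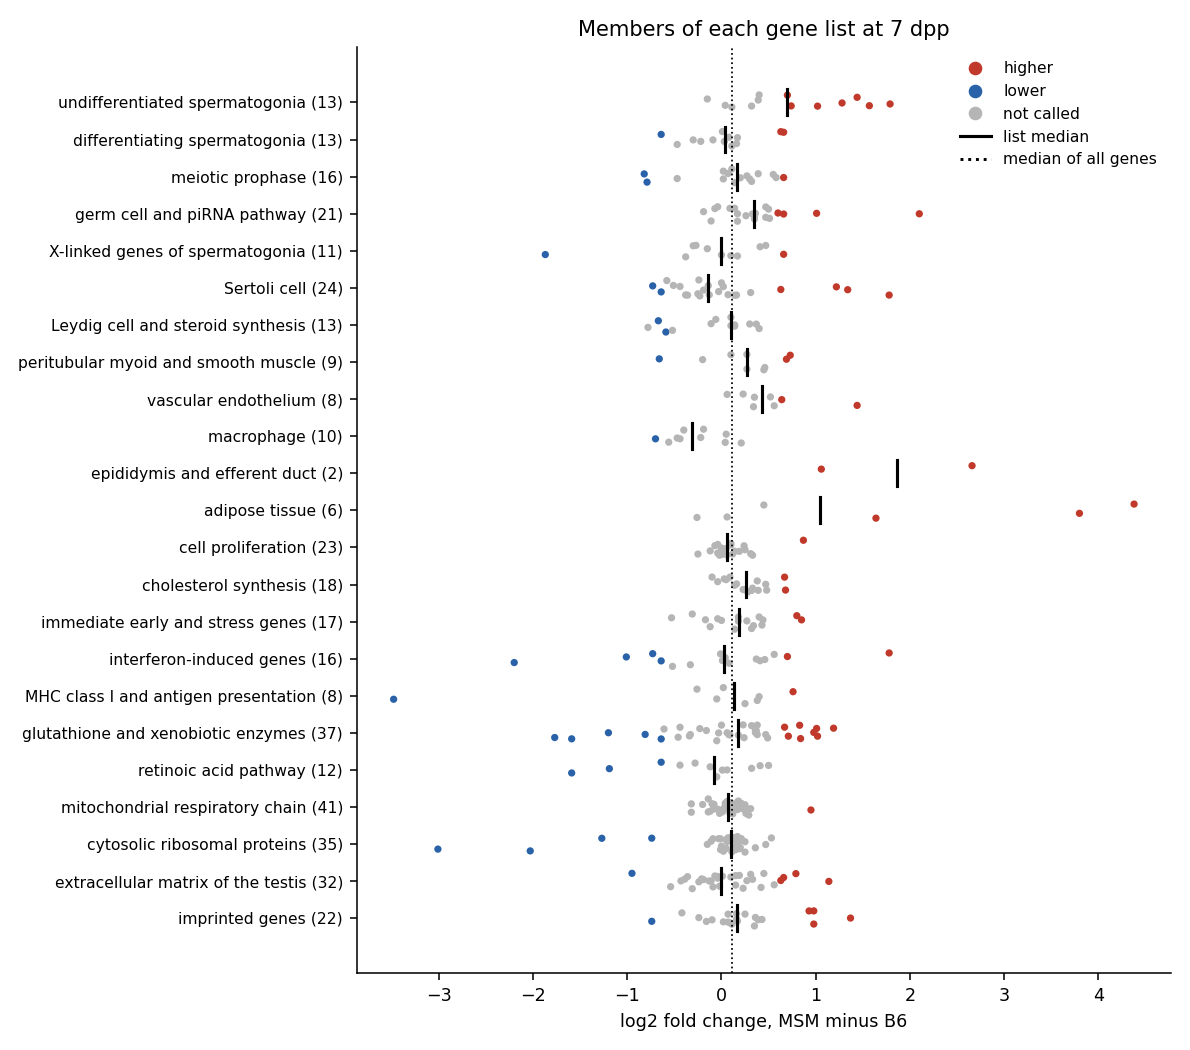
Log2 fold changes of MSM against B6 at 7 dpp (horizontal axis) for the members of each gene list above the signal minimum, their number in brackets, with 1 point a gene by its probe set of highest mean, red for higher, blue for lower and grey for not called. Black bars are list medians and the dotted line is the median of all genes, 0.114; the list of undifferentiated spermatogonia has its median at 0.70.

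Enzymes of glutathione and xenobiotic metabolism, which detoxify foreign compounds, moved in both directions. Of 46 on the array 37 were kept, 8 rose and 5 fell, and the median was 0.18, or 0.06 without the third MSM male and 0.11 without the second B6 male. Without the signal minimum 10 of the 46 rose and 5 fell. Of the 13 genes called with it, *Aldh1a2*, *Nqo1* and *Cbr3* were kept through a single strain. *Gstm2*, a glutathione transferase, measured 7.97, 7.90 and 7.92 in MSM and 9.69, 9.66 and 9.76 in B6 and fell by 1.77 (limma adjusted p = 1.93e-07). Its neighbours in the same gene cluster lay on both sides. *Gstm1* fell by 0.81 at 1 of its 4 kept probe sets and was not called at the others, while *Gstm3* and *Gstm4* rose by 0.84 and 0.98. The sequences of these genes are alike, and probes may read more than a single member. *Gstz1*, which breaks down tyrosine, rose by 1.19 (5.36, 5.41 and 5.49 against 4.23, 4.21 and 4.27; limma adjusted p = 1.79e-06). *Nqo1* and *Cbr2*, which reduce quinones and carbonyls, rose by 1.01 and 1.02. With the signal minimum at log2 of 50, the list held 2 rising and 2 falling genes of 20.

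Among 12 kept genes of the retinoic acid pathway 3 fell and none rose, with a median of -0.08 (0.01 over all 18 on the array). Without the signal minimum 3 of the 18 fell and none rose. *Aldh1a2* and *Stra6* were kept through B6 alone. *Aldh1a2*, an enzyme that makes retinoic acid, measured 3.06, 3.31 and 3.35 in MSM and 4.90, 4.54 and 5.06 in B6, and fell by 1.59 (limma adjusted p = 3.1e-05). *Rbp4*, the carrier of retinol in blood, fell by 1.19 (4.15, 4.62 and 4.50 against 5.49, 5.55 and 5.80; limma adjusted p = 0.000113), and *Stra6*, its receptor, by 0.64 as given above. *Cyp26b1*, the Sertoli cell enzyme that degrades retinoic acid, had -0.44 (limma adjusted p = 0.000646) and was not called. Other uncalled members lay on the opposite side, with 0.50 for *Dhrs3*, 0.41 for *Crabp1* and 0.32 for *Rxrb*. Of the 12 kept genes 5 had a positive log2 fold change. All 3 falling genes had means under log2 of 50 in both strains, and none of the 5 members above it was called.

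Imprinted genes, expressed from the copy of 1 parent, had 22 of 29 members kept, 4 rising and 1 falling, and a median of 0.16. Without the signal minimum 4 of the 29 rose and 1 fell, and *Nnat* and *Phlda2* were kept through MSM alone. *Nnat*, a membrane protein of the endoplasmic reticulum expressed from the paternal copy, measured 4.15 ± 0.13 in MSM and 2.78 ± 0.16 in B6 (mean and SD, n = 3), without overlap, and rose by 1.37 (limma adjusted p = 1.19e-05). *Mest*, paternally expressed and linked to fetal growth, rose by 0.98 (6.95, 6.93 and 6.92 against 6.05, 5.92 and 5.89; limma adjusted p = 6.57e-06), as did the maternally expressed *Phlda2* by 0.98. Of the long noncoding RNAs of the *Dlk1* domain, *Rian* was 0.93 higher at its probe set of highest mean and -0.23, -0.01 and -0.29 at the others, and *Meg3* fell at 2 of its 8 probe sets.

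Interferon-induced genes, which act in defence against viruses, had 16 of 34 members kept, 2 rising and 4 falling, with a median of 0.02. Without the signal minimum 2 of the 34 rose and 6 fell. Of the 6 genes called with it, 5 were kept through a single strain. These were *Gbp7*, *Xaf1* and *Ifih1* through B6, and *Trim30a* and *Gbp2* through MSM. *Gbp7*, a guanylate-binding protein, measured 2.80, 2.87 and 2.88 in MSM and 5.06, 5.01 and 5.09 in B6 and fell by 2.20 (limma adjusted p = 6.9e-08), and its other probe set fell by 1.29. *Trim30a*, a regulator of innate immunity, rose by 1.78 (3.49, 3.36 and 3.83 against 1.79, 2.02 and 1.53; limma adjusted p = 2.66e-05). *Ifi35* fell by 0.64 and *Ifih1*, a sensor of viral RNA, by 0.73, while *Gbp2* rose by 0.70. In the fit over all groups the limma adjusted p of *Gbp2* was 0.106. Of 8 kept genes of antigen presentation 1 rose and 1 fell. Without the minimum 1 of 14 rose and 2 fell, and *H2-Q10* was kept through B6 alone. *H2-Q10*, a class I gene of a family whose number and sequence vary among strains, measured 1.92, 1.02 and 2.00 against 5.28, 4.79 and 5.33 and fell by 3.48 (limma adjusted p = 1.29e-05), and the class II gene *H2-Aa* rose by 0.76.

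Lists of basic cell functions held few calls. Cell proliferation (23 genes) had a median of 0.05 with 1 gene higher, *Tyms*, which makes thymidylate, by 0.87. The mitochondrial respiratory chain (41 genes) had a median of 0.07 and the single gene *Nnt* higher. Cholesterol synthesis (18 genes) had a median of 0.27 with *Dhcr7* and *Mvd* higher by 0.68 and 0.67, the latter 0.57 without the first B6 male and without the second MSM male. Immediate early and stress genes (17 kept of 19) had a median of 0.18 with *Dusp1* and *Egr2* higher by 0.85 and 0.80, and without the first B6 male the median was 0.30 and 3 genes were higher. Cytosolic ribosomal proteins (35 kept of 38) had a median of 0.10, and 4 fell, where 5.33% of all genes did. *Rpl14*, of the large subunit, measured 1.32, 0.81 and 1.14 in MSM and 4.13, 3.87 and 4.32 in B6, a fall of 3.01, and *Rpl12*, *Rps25* and *Rps6* fell by 2.03, 1.27 and 0.74. Each of these 4 genes was read by 1 kept probe set, and *Rpl14* was kept through B6 alone. No ribosomal protein gene rose, except 1 when the third MSM male was left out. Extracellular matrix genes (32 kept of 33) had a median of -0.01 with 4 higher and 1 lower. *Lum*, a collagen-binding proteoglycan, rose by 1.14 (7.55, 7.25 and 7.53 against 6.52, 6.71 and 5.68) and *Fn1*, fibronectin, by 0.79. *Col14a1*, a fibril-associated collagen, fell by 0.95, but its limma adjusted p was 0.0567 without the first and 0.0547 without the second B6 male. Without the second B6 male 6 genes of this list rose and none fell.

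Strain differences were spread over all chromosomes. The share of transcripts higher in MSM ran from 6.95% on chromosome 14 to 11.6% on chromosome 13, and the share lower from 6.17% on chromosome 8 to 9.62% on chromosome 19. On autosomes 1569 of 16795 transcripts (9.34%) were higher and 1322 (7.87%) lower. On the X chromosome 57 of 503 (11.3%) were higher and 43 (8.55%) lower, and the SD of the log2 fold changes was 0.637, beside 0.602 on autosomes. Of all calls 54.4% were higher, with 44.3% on chromosome 14 and 62.3% on chromosome 15 as the ends of the range.

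**Figure D4:**
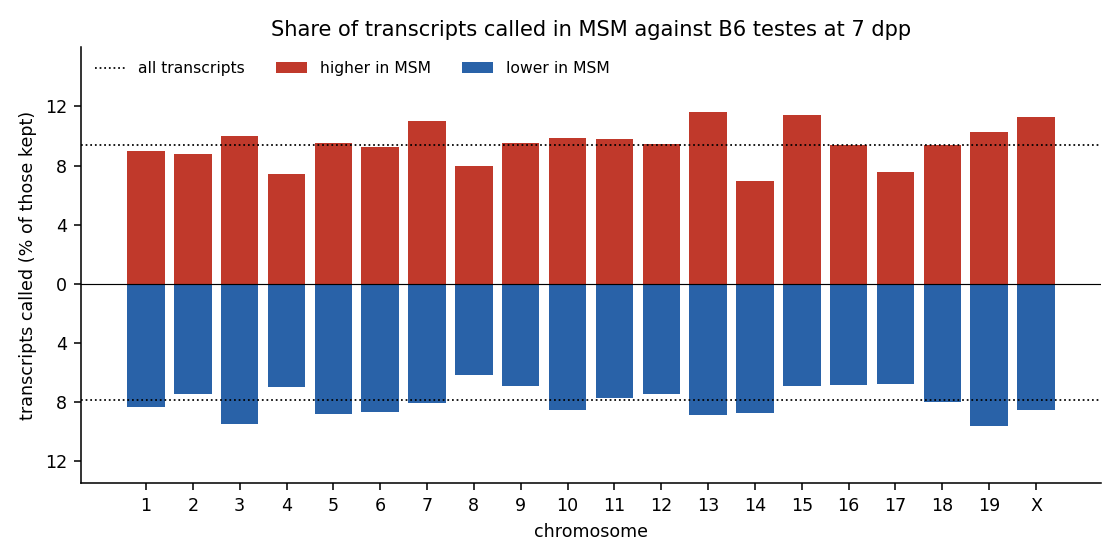
Percent of kept transcripts called higher (red, above 0) and lower (blue, below 0) in MSM testes at 7 dpp for each chromosome (horizontal axis), with dotted lines at 9.4% and 7.89% for all transcripts. The bars of the X chromosome, 11.3% and 8.55%, lie among those of the autosomes.

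The largest rise on the X chromosome was that of *Phex*, whose product is a peptidase that regulates phosphate. It measured 5.83, 5.89 and 6.01 in MSM and 1.81, 1.84 and 1.44 in B6, a log2 fold change of 4.21 ± 0.11 (SE, n = 3 a group; limma adjusted p = 6.9e-08), and was 3.61 higher at 5 dpp. *Septin6*, a cytoskeletal GTPase, had 4 probe sets higher by 1.00 to 2.13, 1 lower by 0.87 and 1 at -0.06. *Lpar4*, a receptor of lysophosphatidic acid, rose by 1.84 at 1 probe set (4.59, 4.42 and 4.69 against 2.88, 2.63 and 2.66) and had 0.54 and -0.26 at the others. *Mmgt1*, a membrane magnesium transporter, rose by 2.37 at 1 probe set and had 0.27 at the other. *Adgrg2*, an adhesion receptor of efferent ducts, rose by 2.10 (4.50, 2.97 and 4.44 against 1.84, 2.05 and 1.71; limma adjusted p = 0.00135, and 0.0572 in the fit over all groups). *Egfl6*, a secreted matrix protein, rose by 1.79 (5.21, 3.73 and 4.50 against 3.21, 2.82 and 2.06). The second MSM male was the lowest of its group for *Adgrg2* and *Egfl6*, as for *Krt8*, *Krt18* and *Spink8* above.

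*Mamld1*, which takes part in androgen production in the fetal testis, was read by a single kept probe set. It measured 1.82, 1.93 and 1.95 in MSM and 4.72, 4.54 and 4.79 in B6, and fell by 2.78 (limma adjusted p = 1.02e-07). In mm9 the probe set spans bases 68375047 to 68375621 of the X chromosome. *Araf*, a kinase of the MAPK pathway, fell by 2.80 at 1 of 4 probe sets and had 0.24, 0.45 and 0.22 at the others. *Ints6l* fell by 2.78 and had -0.38 at its other probe set, *Nhsl2* fell by 2.56 and had 0.31, *Prrg1*, a vitamin K-dependent membrane protein, fell by 2.29 and had 0.12, and *Rbmx*, an RNA-binding protein of splicing, fell by 2.17 and had -0.29 and -0.29. In 5 of the 6 largest falls on this chromosome another kept probe set of the same gene was thus not called.

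The X-linked genes of spermatogonia, many of them expressed first in the male germline, numbered 15 on the array with 11 kept, of which 1 rose and 1 fell, with a median of -0.00 and mean levels of 4.57 to 4.65 in MSM and 4.6 to 4.74 in B6. Without the signal minimum 1 of the 15 rose and 1 fell, and *Nxf3* was kept through B6 alone. *Tex11*, which acts in chromosome synapsis, measured 6.70, 6.72 and 6.62 in MSM and 5.98, 6.05 and 6.02 in B6 and rose by 0.66 (limma adjusted p = 3.66e-05). *Nxf3*, an mRNA export factor that is specific to Sertoli cells in the testis although it stands in this list, measured 3.05, 2.61 and 3.10 against 5.13, 4.15 and 5.10 and fell by 1.87 (limma adjusted p = 0.000389), and its germ cell relative *Nxf2* had 0.17 (limma adjusted p = 0.0588). *Taf7l*, a germ cell subunit of the general transcription factor TFIID, measured 6.40, 6.52 and 6.21 against 6.41, 6.36 and 6.37, with a log2 fold change of -0.00 (limma adjusted p = 0.986). *Sox3*, a transcription factor of spermatogonial differentiation, measured 5.95, 6.00 and 5.94 against 6.06, 6.10 and 6.19, or -0.15 (limma adjusted p = 0.0568). *Dusp9*, a MAP kinase phosphatase, had -0.17 and -0.38, neither called. At 5 dpp *Sox3*, *Taf7l* and *Tex11* were 1.83, 0.89 and 1.37 higher in MSM.

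B6-ChrXMSM males carry the same X chromosome as MSM and the autosomes of B6. Both comparisons with MSM used the same 3 MSM arrays, so the values are set side by side only. *Phex* had a mean of 4.50 ± 0.15 (SD, n = 3) in B6-ChrXMSM testes at 7 dpp, between the MSM and B6 means. *Mamld1* had 1.98 ± 0.37 (SD, n = 3) and *Nhsl2* 2.00, both near the MSM values. *Tex11*, *Taf7l* and *Sox3* had 4.25 ± 0.33, 4.94 and 4.10 ± 0.38 (SD, n = 3), below the means of both MSM and B6. Of the X chromosomal transcripts, 54 of 487 (11.1%) were higher and 8 (1.64%) lower in MSM than in B6-ChrXMSM, and on autosomes 14.6% were higher and 9.47% lower, which makes 14.5% and 9.25% of all transcripts. Of the genes of undifferentiated and differentiating spermatogonia, 10 of 13 and 9 of 12 were higher in MSM than in B6-ChrXMSM, and 1 of the latter was lower. Of all genes 14% were higher and 6.77% lower. The difference was not particular to these 2 lists. It held 20 of 21 genes of the piRNA pathway, 13 of 16 of meiotic prophase and 8 of 10 X-linked genes of spermatogonia, with none lower. A gene could again be kept through MSM alone. The study reported B6-ChrXMSM males to be sterile, with meiotic genes downregulated against B6.

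The largest changes of single probe sets were not shared by all probe sets of the same gene. The 10 genes with the largest falls on autosomes were *Rpn1*, *Ppp2r1a*, *Gsn*, *Snhg1*, *Sfpq*, *Ranbp2*, *Stk4*, *Actl6a*, *Cct6a* and *Trio*, and each had at least 1 kept probe set that was not called lower. *Rpn1*, a subunit of the enzyme that glycosylates proteins in the endoplasmic reticulum, measured 0.70, 0.79 and 0.76 in MSM and 9.12, 9.15 and 9.11 in B6 at 1 probe set, a fall of 8.38 on the log2 scale (limma adjusted p = 3.03e-11), with the MSM males under the signal minimum. Another 2 of its probe sets fell by 7.71 and 8.21, and the remaining 2 had 0.17 and 0.26. *Ppp2r1a*, the scaffold of protein phosphatase 2A, fell by 8.07, 7.90 and 7.02 at 3 probe sets and had 0.19 and 0.42 at the rest. *Gsn*, which severs actin filaments, fell by 7.20 at 1 probe set (0.44, 0.52 and 0.33 against 7.72, 7.85 and 7.30) and had -0.05, 0.09 and -0.04 at 3 others.

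Of the 10 autosomal genes with the largest rises 6 had several kept probe sets, and in none of the 6 were all of them called higher. *Pdxdc1*, a decarboxylase-like protein, rose by 5.30 at 1 probe set (6.47, 6.24 and 6.42 against 1.13, 1.14 and 0.95; limma adjusted p = 4.65e-09) and fell by 2.96 and 1.00 at the other two. *Lox*, which cross-links collagen, rose by 5.12 at 1 probe set and had -0.80 (called) and -0.18 at the others, and *H2-K1*, a class I histocompatibility gene, had 3.84, -2.80 and -1.72, all called, and 0.38. *Spdya*, an activator of CDK2 in germ cells, was kept through a single probe set (6.55, 6.77 and 6.57 against 1.87, 2.02 and 2.11; log2 fold change 4.63, limma adjusted p = 1.09e-08), as was *Mt3*, a metallothionein (7.64, 7.55 and 7.59 against 3.19, 3.06 and 3.02; 4.50, limma adjusted p = 2.75e-09). *Sectm1a*, a secreted immune protein, also kept through 1, rose by 4.17. *Pnpt1*, a mitochondrial RNA-processing enzyme, and *Xaf1*, an interferon-induced gene, rose by 3.69 and 3.51 at 1 probe set, while others of these genes had 0.58 and -0.02, and -1.01 (called). In 59 of the 74 transcripts at least 4-fold higher and 155 of the 188 at least 4-fold lower, the weaker strain was under the signal minimum (79.7% and 82.4%), so that the size of these changes rests on a weak signal.

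Over all genes, 4392 had more than 1 probe set kept and 1437 of these had a call. All probe sets were called higher in 122 of them (8.49%), all lower in 69 (4.8%), and calls went in opposite directions in 88 (6.12%). Of 138 such genes with a probe set at least 4-fold lower, all were called lower in 13, and of 35 with a probe set at least 4-fold higher, all were called higher in 8.

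**Figure D5:**
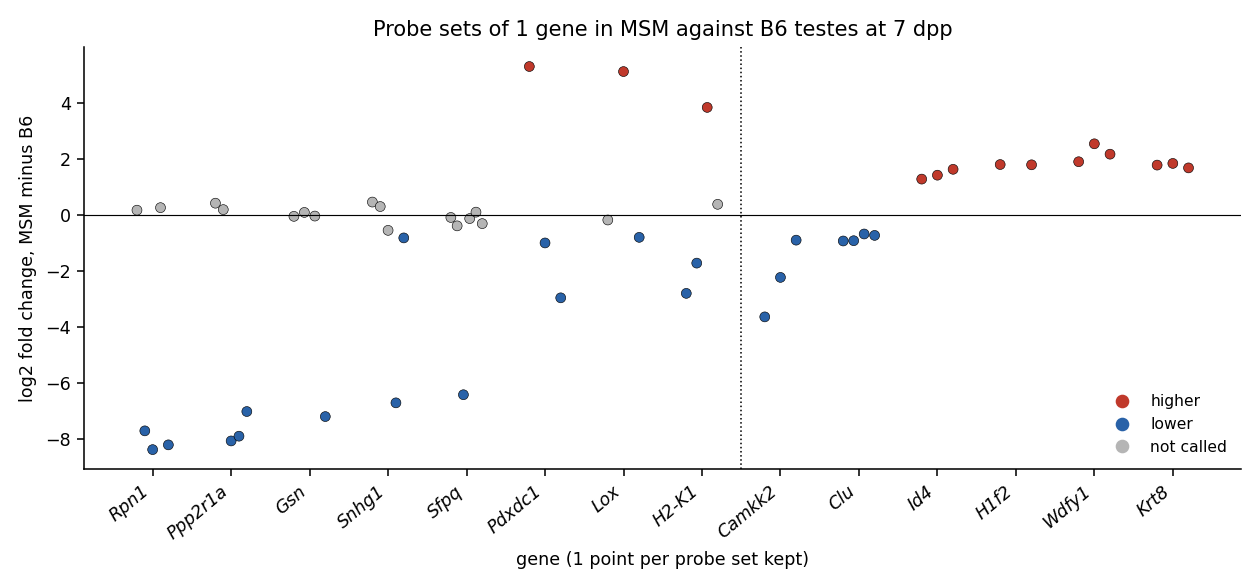
Log2 fold change of MSM against B6 at 7 dpp (vertical axis) for every kept probe set of 14 genes (horizontal axis), red for higher, blue for lower and grey for not called. Left of the dotted line stand genes with the largest changes, each with another probe set near 0 or on the opposite side. *Rpn1* and *Ppp2r1a* were called lower at 3 of 5 probe sets each. Right of the line stand genes whose probe sets all moved the same way, such as *Wdfy1* at 1.90 to 2.54.

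Genes whose probe sets all moved together were picked by their mean change, after the values were seen. *Wdfy1*, an adaptor of endosomal immune signalling on chromosome 1, was higher at 3 probe sets by 1.90, 2.54 and 2.17. The first measured 6.15, 6.14 and 6.22 in MSM and 4.34, 4.16 and 4.29 in B6 (limma adjusted p = 2.65e-07). The gene lies from 79701819 to 79772718 in mm9. *H1f2*, a linker histone, rose by 1.80 and 1.79 (7.59, 7.62 and 7.82 against 5.86, 5.87 and 5.91 at the first; limma adjusted p = 6.44e-07). *Frzb*, a secreted inhibitor of WNT signalling, rose by 1.98 (6.07, 5.96 and 6.14 against 4.35, 3.84 and 4.04; limma adjusted p = 5.05e-06) and by 2.59 at its other probe set. *Rims2*, of synaptic vesicle release, rose by 2.90 and 1.95, *Prkg1*, the kinase activated by cyclic GMP, by 2.40 and 1.51, and *Dpp7*, a lysosomal peptidase, by 1.86 and 1.63. No MSM male overlapped a B6 male at these probe sets.

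In the other direction, *Camkk2*, a kinase that activates AMPK under calcium, measured 5.05, 5.24 and 4.91 in MSM and 8.62, 8.73 and 8.78 in B6 at 1 probe set and fell by 3.64 (limma adjusted p = 5.16e-08), and by 2.23 and 0.90 at the other two. *Sec61a2*, of the protein channel of the endoplasmic reticulum, fell by 1.84 and 1.87 (3.18, 3.47 and 3.46 against 5.29, 5.20 and 5.14 at the first). *Masp1*, a protease of the complement system, fell by 1.78 and 2.05, and *Dusp19*, a phosphatase, by 1.97 and 1.80. *Dsp*, which anchors desmosomes, measured 3.52, 2.59 and 3.34 against 5.22, 5.38 and 5.05 and fell by 2.07 and 1.91. *Ctsh*, a lysosomal protease, fell by 0.70 and 3.03 and *Rgcc*, a regulator of the cell cycle, by 0.97 and 3.12, so that the size differed between their probe sets although the direction did not.

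*Nnt*, the transhydrogenase of mitochondria that C57BL/6J mice lack in functional form, was higher in MSM. It measured 6.72, 6.66 and 6.76 against 5.55, 5.51 and 5.38, a log2 fold change of 1.23 (limma adjusted p = 2.57e-06), and its other kept probe set rose by 0.95 (limma adjusted p = 0.000195). *Prdm9*, which places recombination sites in meiosis and varies among mouse strains, was under the signal minimum in both groups (2.00, 1.96 and 1.86 in MSM and 1.52, 1.67 and 1.55 in B6).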

How the data were processed

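Total RNA of whole testes was hybridized to Affymetrix Mouse Genome 430 2.0 arrays, 1 male an array, with 3 males in each group. The authors summarised the perfect-match probes of each probe set by RMA in GeneSpring GX and deposited the normalized log2 signals. This comparison starts from those signals. The study placed probe sets on mm9, and mm9 positions given here are those of the study. Genes were taken from the array's platform annotation and matched to RefSeq by gene identifier, which gave their names and chromosomes. Groups were taken from the strain and age labels. Of 34958 probe sets with 1 gene (932 had several and 9211 had none), those with a known chromosome were used. The study's list of polymorphic probe sets is for chromosome 1 and the X chromosome, and 981 on it were left out. Of these, 92 were placed on another chromosome here.

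Strains were compared with limma (version 3.58.1, R 4.3.3; lmFit and eBayes) over the 6 arrays of 7 dpp, with Benjamini-Hochberg adjustment over every kept probe set, an adjusted p below 0.05 and a fold change of 1.5 as limits, and a signal minimum of log2 of 10. The 5 dpp strains, the strain difference by age (12 arrays) and MSM against B6-ChrXMSM were fitted likewise. The fit was tested on simulated data. Values of list genes are those of the kept probe set with the highest mean. With arrays, the number of males limits the precision.

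The text names the 10 largest rises and falls on autosomes and 6 on the X chromosome among called probe sets whose groups did not overlap, up to 4 called members of each of 25 gene lists with the largest uncalled values of lists without a call, the 5 largest differences by age in each direction, and *Nnt*, *Prdm9*, *Nxf2*, *Nxf3*, *Tex11*, *Taf7l*, *Mamld1*, *Phex*, *Dusp9* and *Sox3*; further members of the lists are given for context. Genes and lists were chosen with earlier results of these data known. The alternatives were other signal minimums (none, or log2 of 50), array medians subtracted, repeated quantile normalization, the replicate number as a block, polymorphic probe sets kept, 1 fit over all groups, an intensity trend, 1 probe set a gene and each male left out in turn. Same-numbered males of the strains did not deviate together (correlations of 0.13, -0.03 and -0.03), so the numbers were not taken as pairs. Figures were drawn with matplotlib 3.10.9.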

Additional observations from a re-analysis of the deposited data

Results flagged for a closer look

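The strain difference changed with age at many transcripts. In a test of the difference itself over the 12 MSM and B6 arrays, 1022 transcripts had a more positive log2 difference between MSM and B6 at 7 dpp than at 5 dpp and 1141 a more negative one, by limma with an adjusted p below 0.05 and a change of at least 1.5-fold. All strain differences below are log2 values of MSM minus B6.

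The 5 largest changes toward MSM were those of *Cbln1*, *Spink8*, *Cap1*, *Zg16* and *Defb29*. *Cbln1*, a secreted synapse organizer, had strain differences of -5.79 at 5 dpp and -2.02 at 7 dpp, a change of 3.77. *Spink8*, the protease inhibitor of the epididymis, went from -1.09 to 2.66, a change of 3.74 (limma adjusted p = 0.0209). The call of *Spink8* was lost in a fit over all groups (limma adjusted p = 0.0925) and without the second B6 male, the first MSM male or the third MSM male of 5 dpp, with 3.36, 3.27 and 3.30, and its value was 4.36 without the third B6 male and 4.65 without the second MSM male of 5 dpp, 4.46 without the second MSM male and 3.10 without the third MSM male of 7 dpp. *Cap1*, which binds actin, went from -3.03 to -0.40 at 1 probe set, a change of 2.63. *Zg16*, a lectin of secretory granules, and *Defb29*, a defensin, had -4.24 and -2.12 at 5 dpp and were under the signal minimum in both strains at 7 dpp, and their changes were 2.38 and 2.32. The change of *Defb29* had a limma adjusted p of 0.256 in the fit over all groups.

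The 5 largest changes toward B6 were those of *Golm2*, *H2-Q10*, *Sox3*, *Daam2* and *Hspa8*. *Golm2*, a Golgi membrane protein, went from -0.05 to -2.58, a change of -2.53. *H2-Q10* was under the signal minimum in both strains at 5 dpp and 3.48 lower in MSM at 7 dpp, a change of -2.34. *Sox3*, the X-linked factor of spermatogonia, went from 1.83 to -0.15, a change of -1.99 (limma adjusted p = 6.99e-05). *Daam2*, a formin of WNT signalling, went from 1.26 to -0.66, a change of -1.92. *Hspa8*, a chaperone, went from 1.08 to -0.76 at 1 probe set, a change of -1.84, while its other kept probe set had -0.10 and 0.14.

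Probe sets that the study listed as polymorphic in MSM were kept out of every comparison above. Fitted with the others, 41 of the 514 above the signal minimum (7.98%) were called higher and 48 (9.34%) lower in MSM at 7 dpp. On chromosome 1 the listed probe sets were higher in 7.5% and lower in 11.6%, beside 8.96% and 8.31% of those not listed, and on the X chromosome 9.92% and 7.44%, beside 11.3% and 8.55%.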

How the results depend on the processing

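The counts of transcripts higher and lower in MSM at 7 dpp, 1626 and 1365, rested on the signal minimum. They were 525 and 437 with a minimum of log2 of 50 (21 and 12 on the X chromosome), 2364 and 1887 with none, and 960 and 542 with 1 probe set a gene (31 and 22 on the X chromosome), where fewer features were tested. The counts that changed with age were 435 and 441 with a minimum of log2 of 50 (31 and 14 on the X chromosome). Leaving out each male gave 1580 to 1747 higher and 1310 to 1420 lower, and 53 to 61 and 42 to 46 on the X chromosome. Repeated quantile normalization gave 1435 and 1490, so that 49.1% of calls were higher in place of 54.4%, and the replicate block gave 1626 and 1365. With the higher minimum the rising genes were 1 of 7 for differentiating spermatogonia, 1 of 16 for the piRNA pathway and 1 of 17 for Sertoli cells, no endothelial gene was kept, and 2 of 32 ribosomal protein genes fell. *Taf7l* had 0.01 with array medians subtracted and -0.07 to 0.08 when each male was left out. Counting each combination of a named gene and a setting, 29 calls were lost when a male was left out and 18 under other settings, several of them of the same genes, and *Taf7l*, never called, changed sign. Medians of differentiating spermatogonia, X-linked genes of spermatogonia, interferon-induced genes, antigen presentation and the extracellular matrix changed sign under single alternatives. So did those of Leydig cells (-0.06) and glutathione enzymes (-0.02) with a minimum of log2 of 50. The median of cell proliferation was -0.03 after repeated quantile normalization, and that of the retinoic acid pathway was 0.01 with no minimum. Polymorphism scores for most probe sets of autosomes other than chromosome 1 were not used here, so their part in lower MSM signals was not tested, and 3 males a group limit the precision.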
